A study of Mus musculus with 9 samples.

Results

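A set of 10 genes of mineralization and osteogenesis were chosen by name, namely Alpl, Enpp1, Ank, Runx2, Sp7, Mgp, Ibsp, Dmp1, Phex and Ostn, and 8 of these 10 were measured among the 19938 genes with a level. Runx2 and Enpp1, which have no probe set with a single symbol in the platform annotation, are not analysed here. Each of the other 8 genes had 1 probe set, and its value is a log2 RMA level from an Affymetrix Mouse Gene 1.0 ST array (1 unit is a doubling of signal). The genes were described in 4 arrays of skin-derived precursor cells (SKPs) and 5 arrays of sorted cells, all from mouse back skin at postnatal day 4.

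The SKP arrays (replicates 3, 4, 5 and 6) hold primary-passage cells grown out of dissociated skin and gathered as spheres, and the labels give no strain for the mice of this group. The sorted arrays (replicates 2, 16, 17, 18 and 20) hold uncultured cells of Sox2:EGFP mice, which carry EGFP as a reporter of Sox2, collected by flow sorting into RNAlater as EGFP-positive and CD34-negative. Each array is a separate preparation, per the design text. The labels name no treatment. Only the sorted group is labelled as carrying the reporter, so reporter, culture and cell selection cannot be told apart here. The number of arrays limits the precision.

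Mineralization depends on the balance of phosphate, which builds hydroxyapatite, and pyrophosphate, which blocks its growth. Tissue-nonspecific alkaline phosphatase, encoded by Alpl, cleaves pyrophosphate, whereas Enpp1 makes it and Ank passes it out of the cell. Runx2 and Sp7 (osterix) are the transcription factors that drive osteoblast formation, Ibsp and Dmp1 encode acidic matrix proteins of bone, and Mgp encodes a Gla protein that keeps soft tissue from calcifying. In skin, alkaline phosphatase activity is a classical stain for the dermal papilla, the mesenchymal core at the base of the hair follicle.

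Alpl and Ank, which act on the same substrate, differed between the groups in opposite directions, so their promoters are shown first, as RefSeq sequence of GRCm38.p6 from 250 bases before to 50 bases after a listed start. 5 of the 8 measured genes had such a window (Alpl, Ank, Dmp1, Ibsp and Phex), 7 windows in all. Capitals mark matches on either strand to the GC box GGGCGG, a letter pattern bound by Sp-family factors. Alpl has 2 listed starts on the minus strand, an upstream one at chr4:137796335-137796634 and a downstream one at chr4:137766426-137766725. Ank lies on the plus strand, with its window at chr15:27466427-27466726.
Alpl, upstream start: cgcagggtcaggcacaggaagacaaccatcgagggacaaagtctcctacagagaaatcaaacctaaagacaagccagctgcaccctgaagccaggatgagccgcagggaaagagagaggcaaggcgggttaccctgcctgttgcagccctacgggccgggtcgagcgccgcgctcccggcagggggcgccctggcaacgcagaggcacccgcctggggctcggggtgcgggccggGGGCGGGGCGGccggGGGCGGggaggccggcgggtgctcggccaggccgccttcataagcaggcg
Alpl, downstream start: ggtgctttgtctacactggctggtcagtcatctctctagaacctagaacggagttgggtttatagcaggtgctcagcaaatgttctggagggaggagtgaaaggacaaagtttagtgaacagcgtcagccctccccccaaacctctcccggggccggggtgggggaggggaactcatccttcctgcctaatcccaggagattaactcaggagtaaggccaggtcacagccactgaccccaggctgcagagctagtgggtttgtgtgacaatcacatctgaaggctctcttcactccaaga
Ank: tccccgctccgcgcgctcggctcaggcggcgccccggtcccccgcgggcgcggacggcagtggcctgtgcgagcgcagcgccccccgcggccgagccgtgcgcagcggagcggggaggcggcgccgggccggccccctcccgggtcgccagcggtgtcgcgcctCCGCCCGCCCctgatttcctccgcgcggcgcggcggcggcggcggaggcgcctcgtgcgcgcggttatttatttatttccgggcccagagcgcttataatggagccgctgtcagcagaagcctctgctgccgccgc

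The upstream Alpl window holds 3 GC boxes, beginning 15 and 10 bases before the start (these overlap by a base) and at base 1 after it, and the downstream Alpl window holds none. The Ank window holds 2 overlapping matches, at 86 and 82 bases before the start. The same 6 letters occur in 35.7% of 32851 promoter windows of this length. The RUNX core ACCACA, searched on both strands, was found in none of these 3 windows, in 1 of the 2 Dmp1 windows (164 bases before the start) and in 16.8% of all windows. G and C made up 70.0% of the bases of the upstream Alpl window, 54.3% of the downstream one and 78.0% of the Ank window. A single Alpl value per array does not tell which start was in use.

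Of the 8 measured genes 6 passed the test between the groups, Alpl, Sp7 and Phex lower and Ank, Mgp and Ostn higher in SKPs. The test was limma's moderated linear model, with p-values adjusted over all 19938 genes by the method of Benjamini and Hochberg, and a gene passed where this value was under 0.05. By that rule 37.0% of all genes were called, 20.2% higher and 16.9% lower in SKPs. In the same 6 genes the SKP and sorted arrays did not overlap, which held for 34.0% of all genes, 18.5% with SKPs above and 15.5% with SKPs below. The median log2 fold change (SKP minus sorted) of the 8 genes was 0.11, beside 0.07 over all genes. 4 of the 8 (Ibsp, Dmp1, Phex and Ostn) had a mean over all arrays within the lowest 33.3% of genes, below 6.31. No detection p-values were used, so it is not known whether levels in that range lie above background. The SKP means of Alpl, Pde3a, Msx2, Kazald1, Omd and Acan also lie below 6.31. So do the sorted mean of Mmp13 and both group means of Ostn and Phex. The folds given for these genes are therefore approximate.

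**Figure D1:**
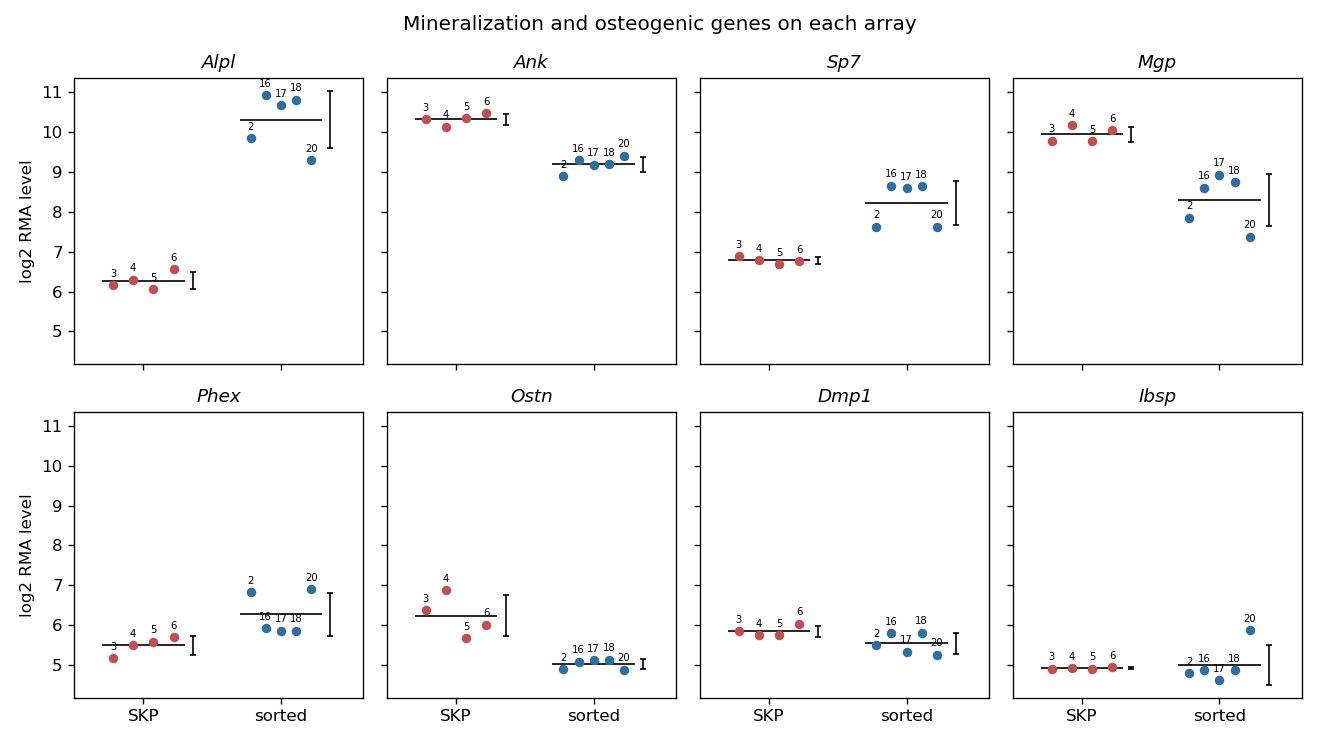
Log2 RMA level (vertical axis, shared) of the 8 measured genes on each SKP array (red) and each sorted array (blue). Small numerals are replicate numbers, horizontal lines are group means and bars beside them are ± 1 SD (n = 4 and n = 5). Alpl lies between 6.06 and 6.57 in SKPs and between 9.29 and 10.93 in the sorted cells.

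Alpl had the largest difference among the 8 genes. Its level in SKPs was 6.17 on replicate 3, 6.30 on replicate 4, 6.06 on replicate 5 and 6.57 on replicate 6. In the sorted cells it was 9.85 on replicate 2, 10.93 on replicate 16, 10.67 on replicate 17, 10.81 on replicate 18 and 9.29 on replicate 20. Every SKP array was therefore below every sorted array, and replicates 2 and 20 were the lowest of the sorted arrays. Alpl was about 16.4-fold lower in SKPs (log2 fold change -4.04, SE 0.32, adjusted p = 7.52e-06), with means of 6.27 ± 0.22 (SD, n = 4) and 10.31 ± 0.71 (n = 5). Without sorted replicates 2 and 20, a choice made with the data known, it was about 23.1-fold lower.

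Ank, the pyrophosphate transporter, was at 10.32, 10.13, 10.34 and 10.48 on SKP replicates 3, 4, 5 and 6. On the sorted arrays it was at 8.89 on replicate 2, 9.30 on replicate 16, 9.18 on replicate 17, 9.19 on replicate 18 and 9.41 on replicate 20. All SKP arrays were above all sorted arrays, and replicates 2 and 20 were the lowest and the highest of the sorted arrays. The gene was 2.18-fold higher in SKPs (log2 fold change 1.13, SE 0.11, adjusted p = 3.90e-05), at 10.32 ± 0.14 (SD, n = 4) against 9.19 ± 0.19 (n = 5). Of the pair that acts on pyrophosphate in opposite ways, the gene for the enzyme that removes it was thus lower and the gene for the exporter higher in SKPs.

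Sp7, the osteoblast transcription factor, was at 6.89, 6.78, 6.69 and 6.76 on SKP replicates 3, 4, 5 and 6. In the sorted cells it was at 8.66, 8.59 and 8.64 on replicates 16, 17 and 18 and at 7.62 on replicates 2 and 20, whose deposited values are identical. The groups did not overlap, and the sorted arrays formed a high set of 3 and a lower set of 2. The gene was 2.72-fold lower in SKPs (log2 fold change -1.45, SE 0.24, adjusted p = 0.00106), at 6.78 ± 0.09 (SD, n = 4) against 8.23 ± 0.55 (n = 5). Without sorted replicates 2 and 20 it was 3.60-fold lower.

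Mgp, the inhibitor of calcification, was at 9.78, 10.16, 9.77 and 10.05 on SKP replicates 3, 4, 5 and 6. It was at 8.61, 8.93 and 8.74 on sorted replicates 16, 17 and 18, at 7.85 on replicate 2 and at 7.38 on replicate 20. SKPs were higher on every array, and the sorted replicates 2 and 20 were again lowest within their group. Mgp was 3.11-fold higher in SKPs (log2 fold change 1.64, SE 0.30, adjusted p = 0.00156), at 9.94 ± 0.20 (SD, n = 4) against 8.30 ± 0.66 (n = 5), and 2.27-fold higher without those 2 arrays.

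Ibsp and Dmp1, the acidic matrix proteins of mineralized tissue, were low in both groups and did not pass the test. Ibsp (bone sialoprotein) was between 4.91 and 4.95 in SKPs and between 4.62 and 4.88 on sorted replicates 2, 16, 17 and 18, with 5.88 on replicate 20. Its log2 fold change was -0.09 (95% confidence interval -0.58 to 0.40, adjusted p = 0.786), and it was 0.13 (adjusted p = 0.230) without sorted replicate 20. Dmp1 was between 5.75 and 6.04 in SKPs and between 5.26 and 5.81 in the sorted cells, so the groups overlapped. Its log2 fold change was 0.30 (95% confidence interval 0.0011 to 0.60, adjusted p = 0.109), and it passed the threshold when each array was centred on its median (0.37, adjusted p = 0.0489). Both genes lie in the range where signal above background is not known, so these intervals set no limit on a difference in RNA.

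Phex encodes a cell-surface endopeptidase whose loss causes phosphate wasting and poor bone mineralization. It was at 5.18, 5.50, 5.59 and 5.71 on SKP replicates 3, 4, 5 and 6. On the sorted arrays it was at 6.83 on replicate 2, 6.91 on replicate 20, and between 5.86 and 5.93 on the other 3. The groups did not overlap, but sorted replicates 16, 17 and 18 lay closer to the SKPs than to replicates 2 and 20. Phex was 1.72-fold lower in SKPs (log2 fold change -0.78, SE 0.25, adjusted p = 0.0331). The call was lost on leaving out any SKP array (adjusted p up to 0.0995) or sorted replicate 2 (adjusted p = 0.0640), and without both sorted replicates 2 and 20 the fold was 1.31 (log2 fold change -0.39, adjusted p = 0.0267).

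Ostn encodes osteocrin, a secreted peptide of bone and muscle that occupies the natriuretic peptide clearance receptor Npr3. It was at 6.38, 6.88, 5.67 and 6.02 on SKP replicates 3, 4, 5 and 6 and between 4.89 and 5.14 on the 5 sorted arrays. All SKP arrays were above the sorted ones, and the SKP arrays spread over more than a unit. The computed fold was 2.31 in favour of SKPs (log2 fold change 1.21, SE 0.21, adjusted p = 0.00111). In the skeletal muscle list 5 of 8 genes were also higher, beside 20.2% of all genes, with a median log2 fold change of 0.32. The list means were 7.07 to 7.47 in SKPs and 6.78 to 6.91 in the sorted cells. On SKP replicates 3, 4, 5 and 6 the muscle list mean was 7.47, 7.07, 7.28 and 7.31. The part of muscle RNA in the Ostn result was not tested.

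**Figure D2:**
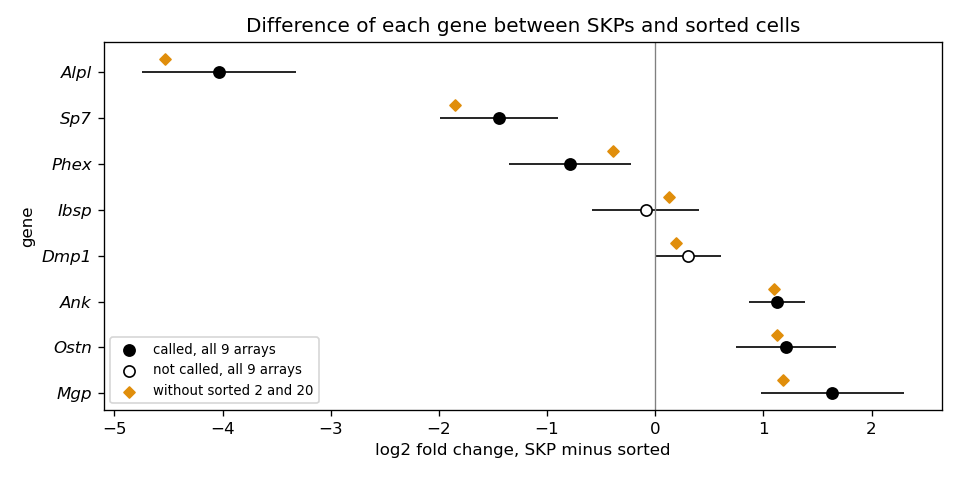
Log2 fold change (horizontal axis, SKP minus sorted) of each of the 8 genes with its 95% confidence interval from the 9 arrays. Filled circles were called and open circles were not, and diamonds give the value without sorted replicates 2 and 20. Alpl at -4.04 stands farthest from 0, and the diamond of Phex lies at -0.39 against -0.78 for its circle.

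Over the whole table the second principal component placed sorted replicate 2 at -32.7 and sorted replicate 20 at -53.3, and the other sorted arrays at 19.1 to 27.8. Cd34, on which the cells were sorted out, was at 10.19 and 10.27 on these arrays and at 7.31 to 7.82 on the other 3, while Sox2, on which they were sorted in, was at 8.24 to 9.25 on all 5 sorted arrays and at 5.78 to 6.41 in SKPs. In the dermal papilla list all 15 of 15 genes were lower in SKPs, but several were chosen with that result known. The mean of that list was 7.03 to 7.19 in SKPs, 11.73 to 11.87 on sorted replicates 16, 17 and 18, 10.70 on replicate 2 and 10.23 on replicate 20. Keratinocyte markers (11 of 12 lower) had list means of 6.83 to 7.11 in SKPs, 9.61 to 9.85 on sorted replicates 16, 17 and 18, 10.15 on replicate 2 and 11.52 on replicate 20. Hair matrix and shaft markers (9 of 12 lower) had means of 5.89 to 6.32 in SKPs, 10.26 to 10.38 on sorted replicates 16, 17 and 18, 7.54 on replicate 2 and 7.29 on replicate 20. Dermal fibroblast markers (5 of 11 higher, Cd34 among them, and 1 lower, with a median log2 fold change of -0.37) had means of 9.70 to 9.83 in SKPs, 8.77 to 8.83 on sorted replicates 16, 17 and 18, 9.79 on replicate 2 and 10.30 on replicate 20. Myeloid markers (9 of 10 higher) had means of 6.94 to 8.50 in SKPs and 5.86 to 6.11 in the sorted cells. Of 8 osteoclast markers 2 were higher, Ctsk and Mmp9, and 6 were not called, beside 20.2% of all genes higher. The median log2 fold change of these markers was 0.14, and 3 of them stayed below 6.31 on all arrays. Their list means were 7.52 to 7.90 in SKPs and 6.59 to 6.77 in the sorted cells, with Ctsk at a mean of 12.89 against 10.36. Lower genes numbered 7 of 10 among pericyte and smooth muscle markers and 7 of 8 among melanocyte markers. They numbered 5 of 6 among Schwann cell markers (the other was higher) and 2 of 8 among endothelial markers. All these marker counts are to be read beside the shares over all genes, 20.2% higher and 16.9% lower. The endothelial list mean was 6.25 to 6.62 in SKPs, 6.30 to 6.44 on sorted replicates 16, 17 and 18, 7.22 on replicate 2 and 7.78 on replicate 20.

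Within the sorted group Alpl, Sp7 and Mgp were lower on replicates 2 and 20 than on the other 3 arrays, as were the papilla and hair lists. Phex was higher on those 2 arrays, as were the fibroblast, keratinocyte, endothelial and melanocyte lists. The Schwann cell list mean was 9.54 on replicate 2 and 9.06 on replicate 20, beside 8.74 to 9.05 on the other 3. The part of these marker levels in the results was not tested, and in such bulk samples fewer cells of a type and less RNA per cell cannot be told apart.

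**Figure D3:**
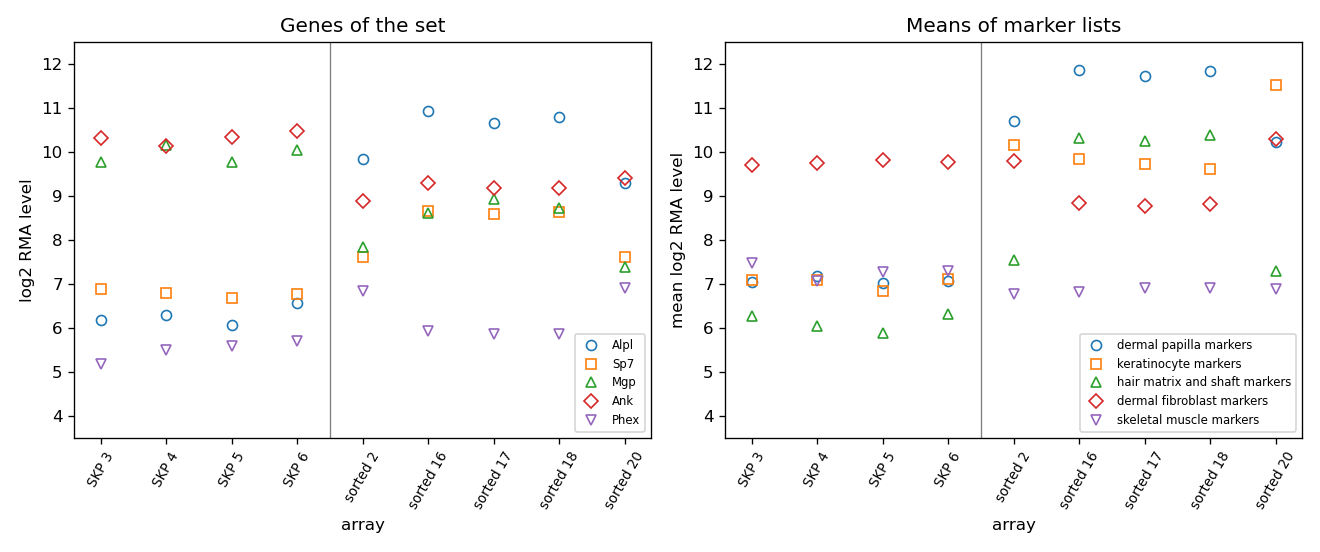
Log2 RMA level of 5 of the genes (left) and mean log2 RMA level of 5 marker lists (right) on each of the 9 arrays, with a vertical line between SKPs and sorted cells. On sorted replicates 2 and 20 Alpl (9.85 and 9.29) and the papilla list (10.70 and 10.23) lie below their values on the other sorted arrays.

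The genes with profiles most like those of Alpl, Ank, Sp7 and Mgp were found by the smallest root mean square difference of mean-centred log2 levels over the 9 arrays, among the genes of the whole table that have a name (gene models with only a Gm, LOC or Rik symbol were left out). For Alpl these were Pde3a (0.16), a phosphodiesterase of cyclic nucleotides, Rspo3 (0.23), a secreted Wnt amplifier, and Thsd7a (0.30), with log2 fold changes of -4.20, -4.08 and -4.32. For Sp7 they were Ehd3 (0.09), Robo1 (0.12), a Slit receptor, and Epha4 (0.12), an ephrin receptor. For Ank they were Ddx25 (0.07), Gstp1 (0.10), a glutathione transferase, and Rgma (0.11), a BMP co-receptor. For Mgp they were Nfe2l2 (0.22), the oxidative stress transcription factor NRF2, Mctp1 (0.23) and Tlr3 (0.23), a receptor for double-stranded RNA. This likeness includes the difference between the groups, on which each of the 4 genes also differs. Pde3a in SKPs (mean 6.30) and Ddx25 (5.75) and Mctp1 (6.15) in the sorted cells lie below 6.31. In that range signal above background is not known.

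The wider pathway was read from 7 lists of related genes, 70 measured of 75, none of them among the 8 genes above. 15 were higher and 19 lower in SKPs, 48.6% of the 70 against 37.0% of all genes, with a median log2 fold change of 0.10 against 0.07 over all genes. With sorted replicates 2 and 20 left out, 21 were higher and 24 lower. Calls rose over the whole table too in that fit, to 5060 higher and 4204 lower from 4020 and 3366. The counts of single lists below are to be read beside the shares over all genes, 20.2% higher and 16.9% lower with all arrays. The lists were chosen with earlier results of these data known, so setting 48.6% beside 37.0% is no test of the pathway.

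In the list of phosphate and pyrophosphate handling 4 of 11 genes were higher and 1 lower, and the list's median log2 fold change was 0.26. Slc20a1, the phosphate importer PiT-1, was 9.16-fold higher, at 12.92, 12.53, 13.03 and 13.00 on SKP replicates 3, 4, 5 and 6 and at 9.42 to 10.19 on the sorted arrays (adjusted p = 5.95e-07). Every SKP array was more than 2 units above every sorted array. Enpp3, an ectoenzyme of the same family as Enpp1, was 5.05-fold higher (adjusted p = 1.57e-06), and the ectonucleotidase Entpd1 and the annexin Anxa5 were the other 2 higher members. Nt5e (CD73), which releases phosphate from extracellular AMP, was 2.08-fold lower (adjusted p = 0.00350). Phospho1, the phosphatase of matrix vesicles, had a log2 fold change of 0.36 and did not pass (adjusted p = 0.0715), with means of 5.64 and 5.28. Without both sorted replicates 2 and 20 the list had 6 higher and 2 lower, in a fit that called more genes over the whole table.

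Among the bone matrix proteins outside the first set and the vitamin K enzymes 3 of 9 measured genes passed, all higher, with a median of 0.23. Over all genes 37.0% passed in either direction. Ggcx, the carboxylase that adds the Gla residues of Mgp, was 2.63-fold higher (adjusted p = 1.70e-05), at 10.51 to 10.74 in SKPs and 8.90 to 9.57 in the sorted cells. Vkorc1, which recycles vitamin K for that reaction, was 1.51-fold higher (adjusted p = 0.00151). Mgp and both enzymes of its carboxylation were therefore higher in SKPs, with no overlap of the groups in any of the 3. Gas6, another Gla protein, was 2.29-fold higher (adjusted p = 0.0203), a call lost without SKP replicate 3 or 5 (adjusted p = 0.0527 and 0.0502), with 9.91 on sorted replicate 20 and 7.96 to 9.08 on the other sorted arrays. By limma 0 were lower, with 1 at an unadjusted p under 0.05, and 1 was called lower without sorted replicate 2, without sorted replicate 20 or without both. The bone proteins Dspp and Mepe did not pass, with a log2 fold change of 0.23 for Dspp (adjusted p = 0.159) and, for Mepe, 0.12 (adjusted p = 0.582) with levels of 3.34 to 4.12 on all arrays. Without both sorted replicates 2 and 20, where more genes were called over the whole table, 5 were higher.

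Among 11 measured osteogenic transcription factors 6 were lower and 3 higher, with a median of -0.36. Mef2c, a transcription factor of muscle and bone cells, was 6.05-fold lower, at 8.09 to 8.35 in SKPs and 10.58 to 11.22 in the sorted cells (adjusted p = 3.90e-07). Msx2, a homeobox factor shared by bone and hair follicle, was about 5.77-fold lower (adjusted p = 9.46e-04) and about 9.35-fold lower without sorted replicates 2 and 20, where it was at 7.54 and 7.51 against 9.13 to 9.46 on the other 3. The others called lower were Runx3, Dlx3, Fosl2 and Dlx5. Of these, Dlx5 was only 1.19-fold lower, just under the threshold (adjusted p = 0.0499) and with overlapping groups. The count of lower factors was 5 with quantile normalization and with median centring. Msx2 and Dlx3 also stand in the hair matrix list, whose mean was lower in SKPs. Runx1 was 1.46-fold higher (adjusted p = 0.0215), and Cbfb, the partner subunit of the RUNX proteins, was 1.27-fold higher (adjusted p = 0.0250). Runx1 lost its call without SKP replicate 3 or 5 or sorted replicate 17, and Cbfb in 5 of the 9 fits that left out an array. The count of 3 higher factors was 1 without SKP replicate 4, without SKP replicate 5 or without sorted replicate 17.

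Of 13 products of osteoblasts and osteocytes 4 were higher and 4 lower, and the median log2 fold change was 0.12. Pdpn (podoplanin), found on early osteocytes and on many fibroblasts, was 10.6-fold higher, at 11.83 to 12.51 in SKPs and 8.42 to 9.37 in the sorted cells (adjusted p = 2.42e-06). Mmp13, the collagenase of growth plate and bone, was 182-fold higher (adjusted p = 1.26e-07), at 12.90 to 13.37 against 5.29 to 6.95. Omd (osteomodulin) was 5.01-fold lower (adjusted p = 6.80e-04), with SKP levels of 3.81 to 4.77 and sorted levels of 5.52 to 7.67. Kazald1, a secreted protein of the IGF-binding family, was 2.93-fold lower (adjusted p = 1.29e-05). Col1a1, the main collagen of bone and dermis, had a log2 fold change of 0.19 and did not pass (adjusted p = 0.575). The count of lower genes was 2 without SKP replicate 3, 5 or 6, without sorted replicate 16, 17 or 18, and with arrays centred on the median.

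Of the 6 genes of the osteocrin and natriuretic peptide axis 2 were lower and 1 higher. Npr3, the receptor that Ostn occupies, was 9.12-fold lower, at 6.48, 6.41, 6.02 and 6.42 on SKP replicates 3, 4, 5 and 6 and at 10.12, 9.03, 9.44, 9.09 and 9.93 on sorted replicates 2, 16, 17, 18 and 20 (adjusted p = 4.25e-06). The groups were more than 2 units apart, and within the sorted group replicates 2 and 20 were the highest. Npr2, the receptor for C-type natriuretic peptide, was 1.80-fold lower (adjusted p = 0.0227), a call lost without SKP replicate 5 or 6 or sorted replicate 16, 17 or 18 (adjusted p up to 0.0654), each of which left 1 lower gene in the list. Its ligand gene Nppc was 1.66-fold higher (adjusted p = 0.00484). The computed level of the peptide gene Ostn was thus higher and that of its receptor Npr3 lower in SKPs. Both group means of Ostn lie in the range where signal above background is not known.

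The phosphate hormone axis had 2 lower genes among 6 measured, beside 37.0% of all genes called in either direction. They were Vdr (4.65-fold, adjusted p = 4.65e-07), the vitamin D receptor, and Fgfr1 (1.45-fold, adjusted p = 0.01004), a receptor used by FGF23. By limma 0 of the 6 genes were higher, and 0 were at an unadjusted p under 0.05 in that direction. Galnt3 had a log2 fold change of -1.46 and did not pass (adjusted p = 0.0949). It was at 7.23 to 8.04 in SKPs, 9.73 to 10.42 on sorted replicates 16, 17 and 18, 7.18 on replicate 2 and 8.04 on replicate 20. The list had 3 lower genes with array weights, without sorted replicate 2 and without both sorted replicates 2 and 20. Fgf23 itself had a log2 fold change of 0.07 (adjusted p = 0.619), at 5.94 to 6.41 on all 9 arrays.

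Of 14 chondrocyte genes 4 were lower, Col11a1 (6.61-fold, adjusted p = 2.36e-04), Acan, Sox5 and Sox6, and the median was -0.07. Of all genes 37.0% were called in either direction. Acan (aggrecan) was 3.39-fold lower (adjusted p = 0.0392), at 5.44 to 6.44 in SKPs, 6.75 to 7.01 on sorted replicates 16, 17 and 18, 9.44 on replicate 2 and 9.02 on replicate 20. Its call was lost on leaving out any SKP array, or sorted replicate 2 or 20. Without both sorted replicates 2 and 20 Acan was called (adjusted p = 0.0120), with a smaller fold of 1.75. By limma 0 chondrocyte genes were higher, with 1 at an unadjusted p under 0.05, and 2 were higher without SKP replicate 5 and 1 without sorted replicate 2 or 20. The cartilage collagens did not pass, with 0.31 for Col2a1 on the log2 scale (adjusted p = 0.0743) and 0.11 for Col10a1 (adjusted p = 0.539).

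**Figure D4:**
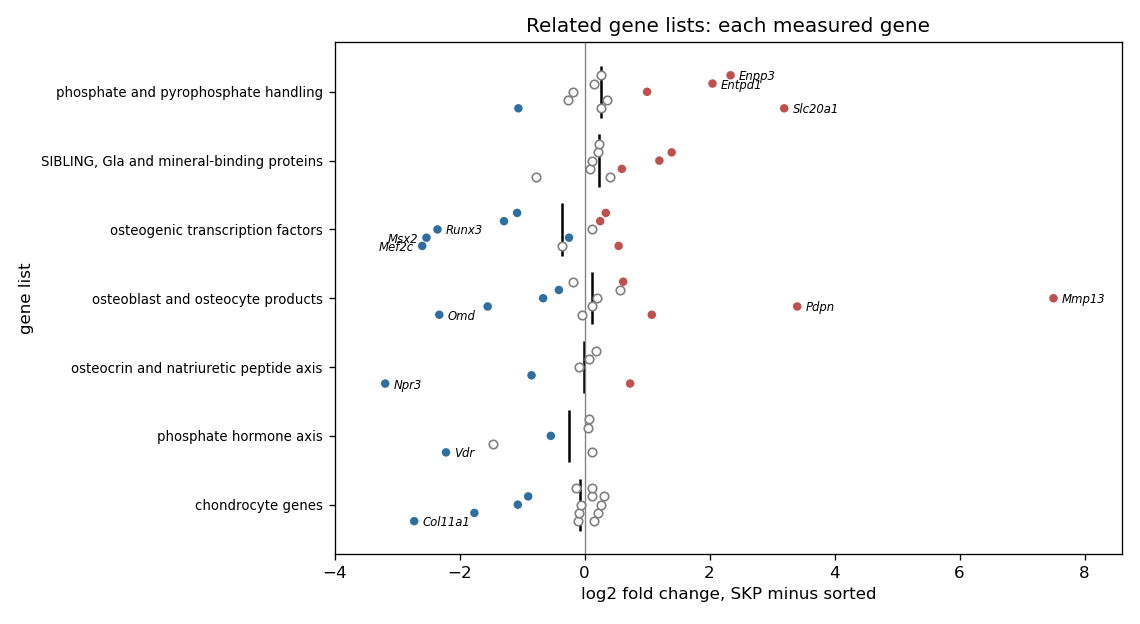
Log2 fold change (horizontal axis, SKP minus sorted) of each measured gene in the 7 related lists. Filled points were called (red higher, blue lower in SKPs), open points were not, and black bars are list medians. Genes beyond 2 units in either direction are named, from Npr3 at -3.19 to Mmp13 at 7.50.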

How the data were processed

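The deposited log2 values are RMA summaries by the authors, 1 per probe set and array, and per the submitters' processing notes the tools were Affymetrix Expression Console, RMA and limma, with no version given. RMA adjusts background, normalizes quantiles between arrays and summarizes probes. The array medians over the 19938 genes lay between 7.15 and 7.30. Of 35556 probe sets, 21789 had 1 symbol in the platform annotation, 1621 had several and 12146 had none listed. Where a gene had several, the one with the highest 9-array mean was used. The comparison of SKP minus sorted cells used limma 3.58.1 in R 4.3.3 (lmFit and eBayes, two-sided) on all genes without a block. The code was tested on simulated data with independent normal noise and, for each gene, the same SD in both groups. Those data lack the shared shift of sorted replicates 2 and 20, so they give no rate of false calls for these arrays. Promoters came from a RefSeq table. Some probe sets hold the same value on several arrays (Sp7, Ibsp, Dmp1 and Phex among the 8 measured genes, each on 2 arrays). Genes of the related lists also repeat values. Examples are Dlx3 at 7.83 on sorted replicates 2 and 20, and Dlx5 at 7.29 on SKP replicate 6 and sorted replicates 16 and 18.

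The genes and lists were chosen with earlier results of these data known. All 10 genes are named. From each related list the 2 highest and 2 lowest called genes are named, and for genes with a group mean of at least 8 the 3 nearest profiles among genes with a name. Other genes named (Entpd1, Anxa5, Phospho1, Vkorc1, Dspp, Mepe, Runx3, Dlx3, Fosl2, Dlx5, Col1a1, Fgf23, Galnt3, Sox5, Sox6, Col2a1, Col10a1, Ctsk and Mmp9) were chosen after their values were seen. The alternatives were quantile normalization, median centring, removal of the lowest 33.3% of genes, a mean over probe sets, each probe set on its own, array weights, trended and robust eBayes, an adjusted p under 0.01 and leaving out each array. Leaving out sorted replicates 2 and 20 together was added with the data known. Figures were drawn with matplotlib 3.10.9.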

Additional observations from a re-analysis of the deposited data

Results flagged for a closer look

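In groups of 4 or 5 arrays, the highest or lowest array was compared with the rest for the 8 genes, the named genes of the related lists and the nearest profiles. Of 80 groups examined 6 had an array far from the others, and chance alone gives about 5% of groups. Ibsp was at 5.88 on sorted replicate 20, against 4.62 to 4.88 on the other sorted arrays. Nt5e was at 9.06 on the same array, against 9.996 to 10.25. Mmp13 was at 6.95 there, against 5.29 to 5.47, and in SKPs it was at 12.90 on replicate 4, against 13.29 to 13.37. Npr3 was at 6.02 on SKP replicate 5, against 6.41 to 6.48. Gstp1 was at 11.39 on SKP replicate 4, against 11.58 to 11.60.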

How the results depend on the processing

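Alpl, Ank, Sp7, Mgp and Ostn kept their direction and their call under every alternative run (18 each, and 17 for Ostn), with log2 fold changes of -4.53 to -3.88, 1.05 to 1.20, -1.85 to -1.34, 1.18 to 1.80 and 1.00 to 1.40. Removing the lowest 33.3% of genes left Ibsp, Dmp1, Phex and Ostn without a value. Ibsp reversed to 0.11 with array weights, to 0.13 without sorted replicate 20 and to 0.13 without both sorted replicates 2 and 20, never called (range over leaving out 1 array -0.19 to 0.13). Dmp1 passed at 0.37 with median centring. Phex (-0.78) did not pass at an adjusted p under 0.01, and ranged from -0.89 to -0.63 on leaving out 1 array. Of 359 values of 20 other named genes 332 stayed on their side of the threshold, and 27 in 6 genes lost their call with the same direction.

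With array weights 6145 genes were higher over the whole table against 4020. Counts in the related lists moved as follows. With array weights 24 were higher in all lists, 5 among matrix proteins (1 lower), 7 among osteoblast products and 2 among chondrocyte genes, and 2 phosphate genes were lower. At an adjusted p under 0.01 there were 9 higher in all lists and 0 higher transcription factors, and lower genes were 2 among osteoblast products, 1 in the osteocrin axis and 1 in the phosphate hormone axis. Quantile normalization gave 3 lower phosphate genes and 2 higher chondrocyte genes, and median centring 2 lower osteoblast products and 2 higher chondrocyte genes. Without both sorted replicates 2 and 20 there were 2 lower phosphate genes, 5 higher and 1 lower matrix proteins and 1 higher chondrocyte gene. Over the whole table that fit called 5060 genes higher and 4204 lower. On leaving out 1 array the ranges were 0 to 1 lower matrix proteins, 1 to 3 higher and 5 to 6 lower transcription factors, 2 to 5 lower osteoblast products, 1 to 2 lower osteocrin axis genes and 0 to 2 higher chondrocyte genes. The cause of these shifts was not tested, other than that a stricter threshold can only remove calls. No paired analysis was possible because the groups share no replicate number.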
